A study of Mus musculus with 6 samples.

Results

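The mitochondrial carrier family, SLC25, was examined by RNA sequencing of subcutaneous white fat in 6 mice of the C57BL/6J strain. Members were all features of the deposited count table whose symbol was Slc25a followed by a number, with the older symbol Mcart1 also allowed for the NAD carrier Slc25a51. Mcart1 was not needed, since the table lists Slc25a51, and a pseudogene symbol (Slc25a5-ps) was left out. This gave 47 members among 40428 features. The ANKO group held 3 mice with the NAD-synthesis gene Nampt deleted in adipocytes, made with floxed Nampt alleles and a Cre recombinase transgene under the adiponectin promoter. The control group held 3 flox/flox mice, and all 6 ate regular chow at room temperature. The sources used here do not give age or sex. Whole tissue was sequenced, so the RNA also comes from vascular, immune and stromal cells, in which this Cre is not directed.

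SLC25 proteins sit mostly in the inner mitochondrial membrane and carry nucleotides, phosphate, carboxylates, amino acids, cofactors and metal ions between cytosol and matrix. Most are built from a repeated pair of membrane-spanning helices and exchange one substrate for another. In white fat the citrate carrier Slc25a1 delivers mitochondrial citrate to the cytosol for fatty acid synthesis, and Slc25a51 brings NAD into the matrix.

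Of the tested carriers, 1 passed the test. Of the 47 members, 43 had enough counts to be tested and 1 was called at an adjusted p under 0.05 (edgeR quasi-likelihood test, adjusted over all 19272 genes tested). That member was the ATP-magnesium/phosphate carrier Slc25a23, which fell to 0.618 of its control level. Lower genes made up 1.10% and higher genes 0.488% of all genes tested, so 1 lower and 0 higher members of 43 (2.33% called in all) is near the background. An unadjusted p under 0.05 was reached by 10 members, 6 higher and 4 lower in ANKO, which is 23.3% of those tested against 12.9% of all genes. In 9 members the 3 values of one group lay wholly above those of the other, 20.9% against 19.4% of all genes. The median log2 fold change (ANKO over control) was 0.03 over the members and 0.00068 over all genes, and the median size without sign was 0.20 over the members and 0.18 over all genes. The count of 1 depends on single libraries and on the tool: it was 0 when any 1 of control 2, control 3, ANKO 1 and ANKO 3 was left out, and DESeq2 called 4 members where it called 4.60% of all genes. Those 4 were Slc25a23 and Slc25a16 (lower) and Slc25a1 and Slc25a48 (higher).

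Library totals were 19748962 to 23860596 counts. Nampt, the deleted gene, stood at 83.6, 93.0 and 87.0 CPM (counts scaled to a common library size) in the controls and 48.6, 50.2 and 47.03 CPM in ANKO, a log2 fold change of -0.85 (SE 0.0776, adjusted p = 0.00416 by edgeR). No ANKO library reached the lowest control. Skeletal muscle RNA differed widely between libraries and not by group, with 18 muscle markers holding a share of 1.13%, 0.331% and 1.69% in the control libraries. In the ANKO libraries, taken in order, that share was 3.35%, 0.564% and 0.0278%. White adipocyte markers were lower in ANKO: all 8 had negative fold changes, and 5 had groups that did not overlap. Of the 8, 3 were called lower and none higher. The summed level of the 8 ran from 11070 to 16420 CPM in controls and from 4107 to 6041 CPM in ANKO. The most abundant markers weigh most in such a sum. The median log2 fold change of the 8 was -0.83, and single markers ran from -2.60 to -0.51. Macrophage markers were higher, with 3 of 8 called, and summed to 564.9 to 621 CPM in controls and 769 to 1002 CPM in ANKO. No marker of either list was at 0 in any library. Brown adipocyte markers were split. Of 6, Elovl3 was called higher by edgeR (adjusted p = 0.0134, but 0.0505 to 0.0561 without any 1 control and 0.120 with limma-voom), and 3 others were lower at an unadjusted p under 0.05. The ANKO libraries lay wholly above the controls for 3 of the 6 and wholly below for 2. Their sums overlapped (41.1 to 81.3 CPM and 50.8 to 80.8 CPM), and Ucp1 was at 0 in control 1. None of 4 fibroblast markers was called, but all 4 had positive fold changes, 2 of them with groups that did not overlap. An unadjusted p under 0.05 by edgeR was reached by 3 of the 4. Fibroblast marker sums were 2127 to 2824 CPM in controls and 2673 to 4199 CPM in ANKO. None of 4 endothelial markers was called, but all 4 had negative fold changes, 2 of them with groups that did not overlap, and their sums were 641 to 761 CPM in controls and 548 to 618 CPM in ANKO. No tested marker of skeletal muscle, mammary epithelium or lymphocytes was called. In bulk tissue, fewer cells of a type and less RNA per cell cannot be told apart.

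Promoter sequence is shown for 3 members that the account turns on: the called Slc25a23, Slc25a16, whose levels ran most closely with it, and Slc25a1, the most abundant member. Each is the 250 bases before the RefSeq start site on the gene's own strand, 5′ to 3′ (RefSeq, GRCm38.p6). The stretches are chr17:57059864-57060113 (minus strand), chr10:62920383-62920632 (plus strand) and chr16:17928220-17928469 (minus strand). Capitals mark matches on either strand to the CCAAT box (CCAAT), the GC box (GGGCGG), the E-box (CACGTG), the cAMP response element (TGACGTCA), the amino acid response element of the stress factors ATF4 and CHOP (TGATGCAA) and the sterol regulatory element (TCACCCCAC). No matches overlapped in these stretches.
Slc25a23 promoter: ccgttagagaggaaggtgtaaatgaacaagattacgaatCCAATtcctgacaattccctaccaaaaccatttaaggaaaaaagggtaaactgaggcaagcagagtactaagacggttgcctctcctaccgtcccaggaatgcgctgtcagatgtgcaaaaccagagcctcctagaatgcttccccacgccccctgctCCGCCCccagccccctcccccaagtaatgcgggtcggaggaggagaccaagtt
Slc25a16 promoter: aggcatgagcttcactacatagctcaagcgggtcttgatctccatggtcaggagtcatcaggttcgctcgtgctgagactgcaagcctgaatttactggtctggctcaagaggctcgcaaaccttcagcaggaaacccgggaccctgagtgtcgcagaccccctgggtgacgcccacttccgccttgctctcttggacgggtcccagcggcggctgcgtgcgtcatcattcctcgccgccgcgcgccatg
Slc25a1 promoter: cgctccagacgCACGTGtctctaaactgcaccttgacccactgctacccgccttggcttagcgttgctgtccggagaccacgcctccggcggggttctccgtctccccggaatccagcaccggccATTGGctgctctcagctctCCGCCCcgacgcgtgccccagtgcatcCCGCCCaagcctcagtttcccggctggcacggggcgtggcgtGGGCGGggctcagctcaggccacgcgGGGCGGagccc
The Slc25a23 stretch held 2 matches, a CCAAT box and a GC box, in 52.4% G and C. That of Slc25a1 held 6, namely 4 GC boxes, a CCAAT box and an E-box, in 70% G and C. The letters of none of the 6 motifs occurred in that of Slc25a16. A promoter was matched by symbol for 36 of the 47 members. GC box letters occurred in 24 of these 36 and CCAAT letters in 16 of 36, against 32.9% and 34.5% of 27025 RefSeq promoters of the same length. The 27025 promoters were not limited to genes expressed in this tissue, so they are not a set matched to the members. E-box letters occurred in 6 members (6.05% of all promoters) and the cAMP response element in 1, the pyrimidine nucleotide carrier Slc25a36 (1.62%). The amino acid response element and the sterol element occurred in none of the 36, and in 0.818% and 0.466% of all promoters. Members with no matched promoter included Slc25a2, Slc25a26, Slc25a27, Slc25a32, Slc25a35, Slc25a37, Slc25a41, Slc25a44, Slc25a46 and Slc25a51.

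The family spanned a wide range of transcript level. Levels between genes are compared as CPM per kilobase of exon, averaged over the 6 libraries. Exon length is that of the merged exons of all annotated transcripts of a gene, which can exceed the length of the transcript expressed. Slc25a3, for example, was divided by 5550 bases and Slc25a5 by 1646. The order of members by level therefore depends partly on annotation. Slc25a1 stood highest at 373 CPM per kilobase (lowest library 144, highest 725), and its lowest library was above the highest library of every other member. Next came the ADP/ATP carrier Slc25a5 at 85.9, the dicarboxylate carrier Slc25a10 at 80.4, the other main ADP/ATP carrier Slc25a4 at 65.3 and the glutathione carrier Slc25a39 at 52.2. The library ranges of these 4 overlapped between each neighbouring pair, so their order is not settled by 6 libraries. The phosphate carrier Slc25a3 followed at 41.4, the oxoglutarate-malate carrier Slc25a11 at 29.8 and Slc25a51 at 28.5. At the other end, 4 members did not pass the filter on low counts and were not tested. Slc25a21, an oxodicarboxylate carrier, had 2 to 16 counts in a library, the testis-type ADP/ATP carrier Slc25a31 had 0 to 6, Slc25a41 had 0 to 4 and Slc25a54 had 0 or 1.

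**Figure D1:**
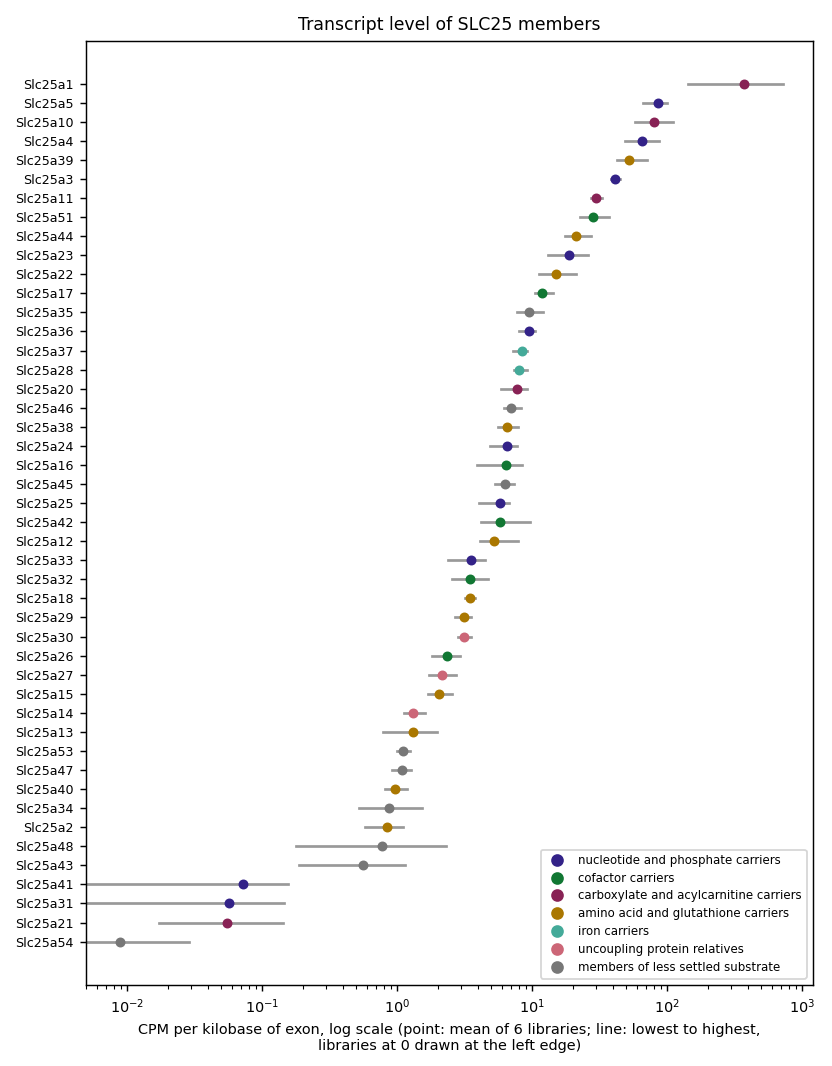
Transcript level of the members shown as CPM per kilobase of exon on a log scale, coloured by role (point, mean of 6 libraries; line, lowest to highest library, with libraries at 0 drawn at the left edge). Slc25a1 stands alone at the top at 373 and Slc25a54 is lowest.

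All 47 members together summed to 2677, 2395 and 2982 CPM in the controls and 2778, 3997 and 2941 CPM in ANKO. Slc25a1 alone made up 22.7%, 13.0% and 21.4% of that sum in the controls and 28.1%, 39.2% and 31.9% in ANKO. Without it the sums were 2069, 2083 and 2345 CPM against 1998, 2429 and 2003 CPM, and the groups overlapped.

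Among the carriers of nucleotides and phosphate, 1 of 8 tested members was called lower and none higher. By sign, 4 fold changes were positive and 4 negative. Slc25a23 (ENSMUSG00000046329.14, GRCm38 chr17:57043711-57059863, minus strand) encodes a calcium-regulated carrier that exchanges ATP-magnesium for phosphate and so adjusts the adenine nucleotide pool of the matrix. Its control values were 110.1, 123 and 137 CPM and its ANKO values 69.4, 86.8 and 72.5 CPM. The highest ANKO library lay below the lowest control library. The mean fell from 123 ± 13.4 to 76.3 ± 9.27 CPM (SD, n = 3), a log2 fold change of -0.69 (SE 0.117, 95% interval -0.96 to -0.42, adjusted p = 0.0323 by edgeR). Leaving out control 2 gave an adjusted p of 0.102, and leaving out control 3 gave 0.0836. Leaving out ANKO 1 gave 0.0984, leaving out ANKO 3 gave 0.142, and a muscle RNA covariate gave 0.0877. Over the 6 fits that each left out 1 library, the log2 fold change ran from -0.80 to -0.60. The summed white adipocyte and endothelial markers were also lower in ANKO, as given above, and their part in this result was not tested. Of the Slc25a23 exon bases, 3.17% overlap exons of Gm17168, and its neighbour Slc25a41, 2056 bases away on the same strand, had at most 4 counts in a library.

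None of the tested relatives of Slc25a23 passed the test. Slc25a24, which also exchanges ATP-magnesium for phosphate under calcium, stood at 21.8, 20.3 and 16.7 CPM in controls and 23.95, 24.4 and 26.8 CPM in ANKO. Every ANKO value was above every control value, but the difference did not pass the test (log2 fold change 0.35, SE 0.126, adjusted p = 0.274 by edgeR). Slc25a25, a further calcium-regulated relative, had 48.4 ± 5.78 and 43.1 ± 9.97 CPM (log2 fold change -0.16, SE 0.180). Per kilobase, Slc25a23 was 3.28, 3.93 and 5.31 times as abundant as Slc25a24 in controls and 1.88, 2.31 and 1.75 times in ANKO. This ratio was formed after the values were seen, so it is given without a test.

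The ADP/ATP carriers, which pass newly made ATP to the cytosol, did not separate by group. Slc25a5 measured 143.6, 142.7 and 165 CPM in controls and 109.6, 143.1 and 145 CPM in ANKO, with the groups overlapping (log2 fold change -0.18, SE 0.125, adjusted p = 0.626 by edgeR). Slc25a4, the form of heart and skeletal muscle, measured 139.4, 130.5 and 189 CPM in controls and 204.5, 143.8 and 115 CPM in ANKO (log2 fold change 0.01, SE 0.238, adjusted p = 0.992 by edgeR). ANKO 1, the library with the most muscle RNA, had the highest Slc25a4, and ANKO 3, the one with the least, had the lowest. With muscle RNA as a covariate its log2 fold change was 0.14 (SE 0.130, adjusted p = 0.778 by edgeR). Slc25a3, which imports the phosphate used to make ATP, varied least of the 43 tested members, with a ratio of 1.16 between its highest and lowest library (log2 fold change -0.03, SE 0.0921). Of the pyrimidine nucleotide carriers, Slc25a33 had 5.63 ± 1.02 and 7.76 ± 0.836 CPM (log2 fold change 0.47, SE 0.194, adjusted p = 0.364 by edgeR), with every ANKO library above every control, and 14.9% of its exon bases overlap Gm13068. Slc25a36 had a log2 fold change of 0.09 (SE 0.105).

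**Figure D2:**
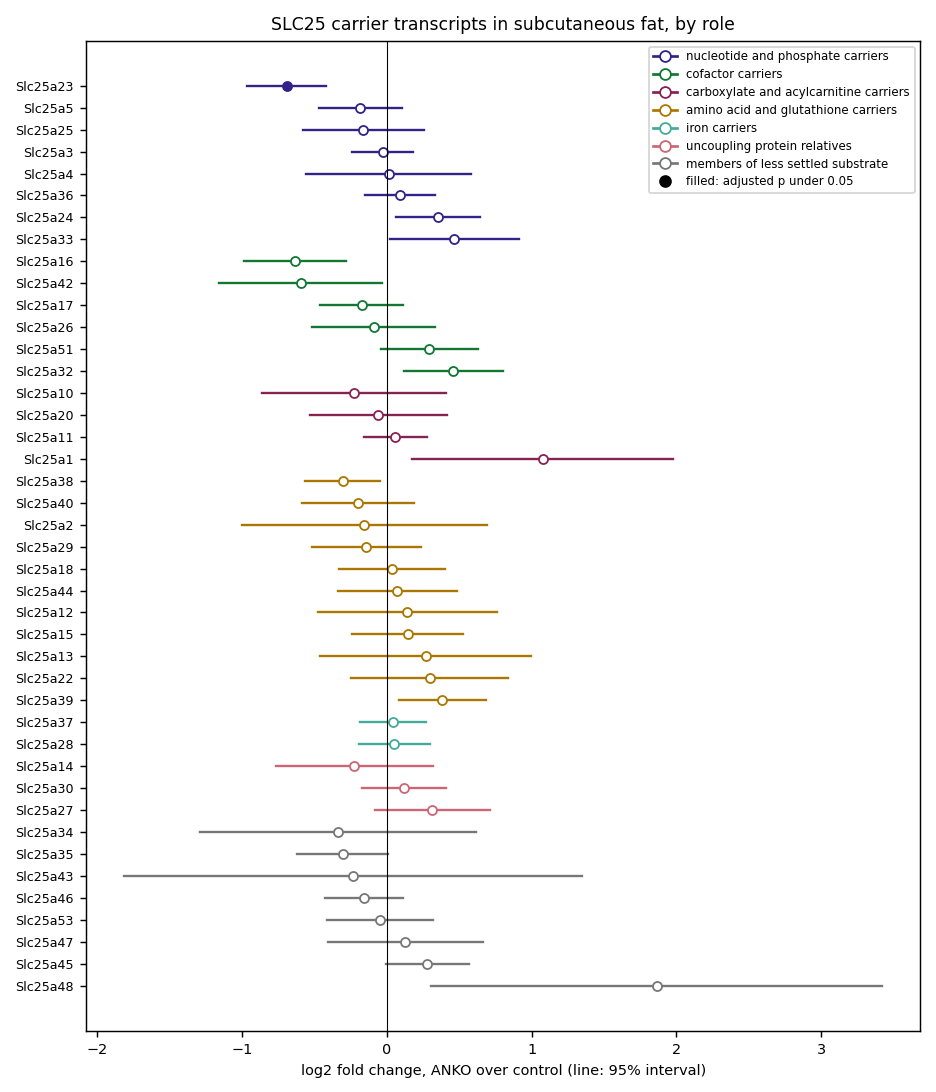
Log2 fold change (ANKO over control) of the tested members shown with 95% intervals, grouped and coloured by role. The filled point marks Slc25a23 at -0.69, and the intervals of 9 other members also lie wholly to one side of 0.

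None of 7 cofactor carriers passed the test. Slc25a51, the NAD carrier, measured 125.8, 156.5 and 141 CPM in controls and 142.4, 206 and 170.3 CPM in ANKO. ANKO 1 lay within the control range. The difference between the groups was a log2 fold change of 0.29 (SE 0.145, 95% interval -0.04 to 0.63, adjusted p = 0.468 by edgeR). The interval leaves room for no difference and for a rise of up to 0.63 on the log2 scale, while Nampt itself fell by 0.85. Slc25a16 (chr10:62920633-62946498, plus strand), a carrier linked to coenzyme A, measured 34.99, 36.8 and 40.8 CPM in controls and 18.7, 26.9 and 27.04 CPM in ANKO. All ANKO values were below all control values, and edgeR gave a log2 fold change of -0.63 (SE 0.153, adjusted p = 0.105). DESeq2 called it (adjusted p = 0.0171), as did edgeR without the low-count filter (adjusted p = 0.0409). Slc25a42, which brings coenzyme A into the matrix, measured 32.1, 58.1 and 35.5 CPM in controls and 25.1, 32.4 and 25.7 CPM in ANKO. Control 2 was the high value, the groups overlapped, and edgeR gave a log2 fold change of -0.59 (SE 0.238, adjusted p = 0.358), or -0.29 without control 2.

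The folate and FAD carrier Slc25a32 had higher values in ANKO, with 15.6, 18.4 and 19.3 CPM in controls and 21.5, 28.9 and 22.9 CPM in ANKO. Its groups did not overlap, at a log2 fold change of 0.46 (SE 0.147, adjusted p = 0.216 by edgeR). The peroxisomal carrier Slc25a17 (log2 fold change -0.17) and the S-adenosylmethionine carrier Slc25a26 (-0.09) had overlapping groups.

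Over the 6 libraries, the members whose log2 CPM ran most closely with Slc25a23 were Slc25a16 (Pearson r = 0.93), Slc25a38 (r = 0.793) and Slc25a42 (r = 0.749). These r values describe 6 libraries, and the points share both the libraries and the split into groups.

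None of 4 tested carriers of carboxylates and acylcarnitines passed the test. Slc25a1 measured 608, 312 and 637 CPM in controls and 779.7, 1568 and 938 CPM in ANKO. Every ANKO library was above every control, with control 2 lowest and ANKO 2 highest. The means were 519 ± 179.9 and 1095 ± 417 CPM, and the log2 fold change of 1.08 had a wide error (SE 0.370, 95% interval 0.18 to 1.98, adjusted p = 0.294 by edgeR, adjusted p = 0.0116 by DESeq2). Acly, the cytosolic enzyme that splits the exported citrate, measured 2153, 453 and 1549 CPM in controls and 1634, 3876 and 2108 CPM in ANKO. It too was lowest in control 2 and highest in ANKO 2, but its groups overlapped (log2 fold change 0.87, SE 0.65). The dicarboxylate carrier Slc25a10, which exchanges malate or succinate for phosphate, measured 298, 219 and 381 CPM in controls and 199.9, 341.5 and 226.5 CPM in ANKO. Its groups overlapped, with a log2 fold change of -0.23 (SE 0.266). Slc25a11, a carrier of the malate-aspartate shuttle, had 61.9 ± 3.79 and 64.4 ± 5.97 CPM (log2 fold change 0.06, SE 0.0943). Slc25a20, which takes acylcarnitines into the matrix for beta-oxidation, had 38.3 ± 8.73 and 36.7 ± 7.16 CPM (log2 fold change -0.06, SE 0.202).

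**Figure D3:**
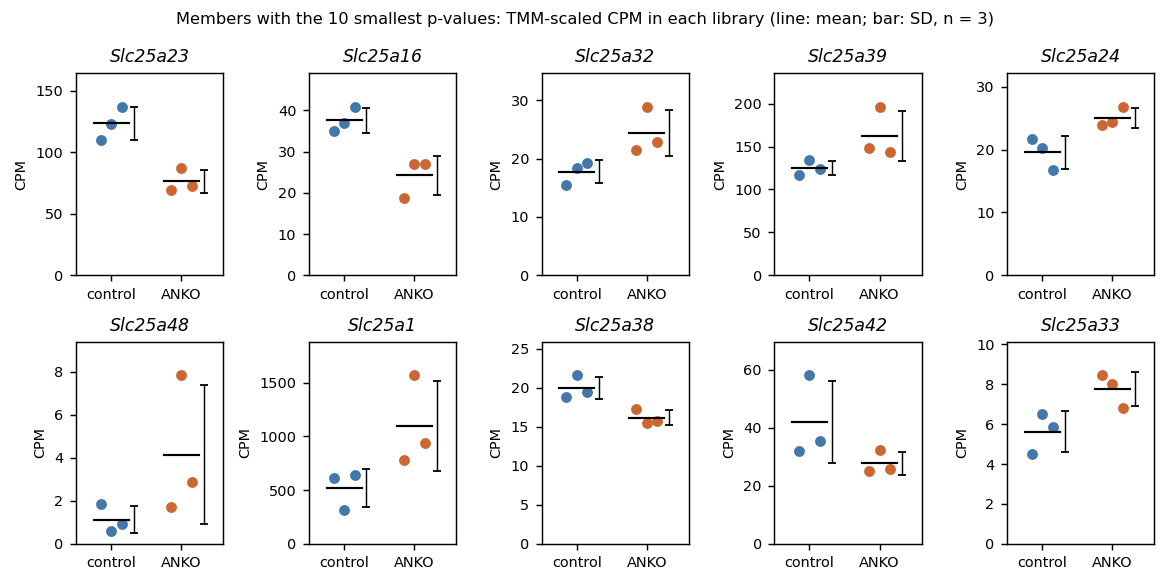
TMM-scaled CPM of the 10 members with the smallest p-values in each of 3 control and 3 ANKO libraries (line, mean; bar, SD). The groups do not overlap for 8 of the 10, and Slc25a42 and Slc25a48 are the exceptions.

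None of 11 carriers of amino acids and glutathione passed the test. Slc25a39, which imports glutathione, measured 117, 133.8 and 123.6 CPM in controls and 148, 196 and 143.9 CPM in ANKO. The groups did not overlap, at a log2 fold change of 0.38 (SE 0.130, adjusted p = 0.248 by edgeR). Its close relative Slc25a40 was less abundant, at a level of 0.9745 CPM per kilobase beside 52.2 for Slc25a39. Its groups overlapped (8.73 ± 1.15 and 7.62 ± 0.834 CPM, log2 fold change -0.20, SE 0.167). Slc25a38, the glycine carrier that feeds heme synthesis, measured 18.8, 21.6 and 19.5 CPM in controls and 17.3, 15.5 and 15.7 CPM in ANKO. All ANKO values lay below the controls, at a log2 fold change of -0.30 (SE 0.113, adjusted p = 0.298 by edgeR).

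The aspartate-glutamate carriers of the malate-aspartate shuttle are Slc25a12 and Slc25a13. Slc25a12 measured 41.6, 32.9 and 35.4 CPM in controls and 58.1, 32.4 and 30.5 CPM in ANKO, with the muscle-rich ANKO 1 highest and ANKO 3 lowest. Its log2 fold change was 0.14 (SE 0.258), and 0.24 (SE 0.170) with muscle RNA as a covariate. Slc25a13, the liver-type form, had 4.54 ± 1.35 and 5.47 ± 1.83 CPM. The glutamate carriers Slc25a22 (log2 fold change 0.30, SE 0.227) and Slc25a18 (0.03, SE 0.158) had overlapping groups, as did the branched-chain amino acid carrier Slc25a44 (0.07, SE 0.175). The ornithine carriers Slc25a15 (0.14) and Slc25a2 (-0.16) and the basic amino acid carrier Slc25a29 (-0.14) overlapped as well.

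**Figure D4:**
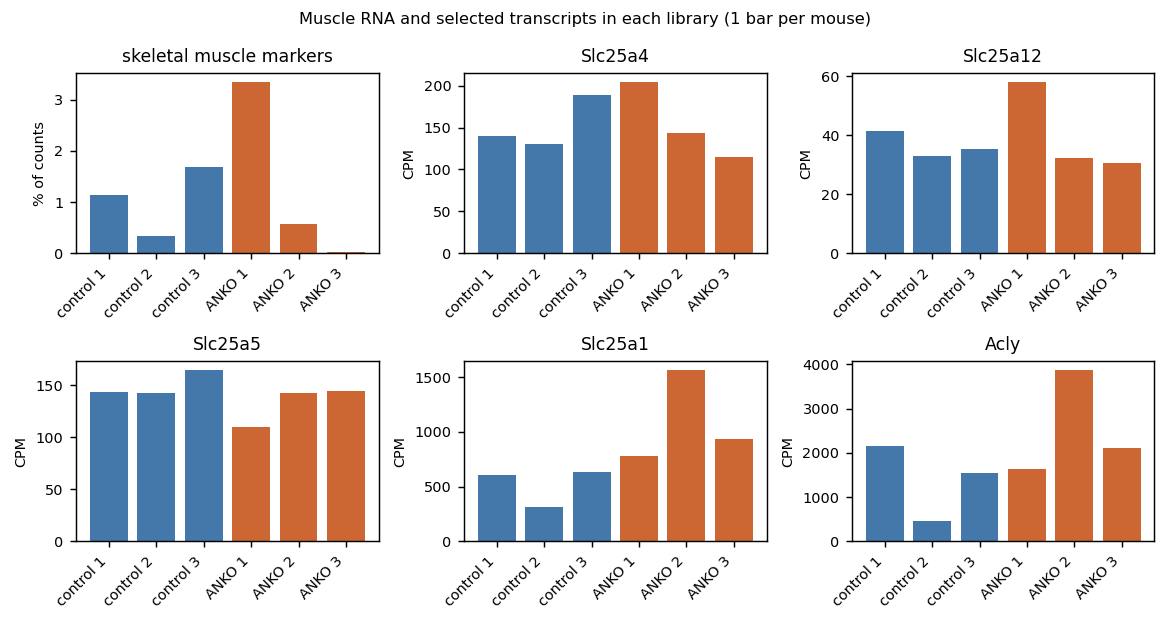
Share of counts in 18 skeletal muscle markers and CPM of Slc25a4, Slc25a12, Slc25a5, Slc25a1 and Acly, 1 bar per library. Slc25a4 and Slc25a12 are highest in ANKO 1, where muscle markers take 3.35% of counts, while Slc25a1 and Acly are lowest in control 2 and highest in ANKO 2.

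Neither iron carrier passed the test. The mitoferrins Slc25a37 and Slc25a28 bring iron to the matrix for heme and iron-sulfur clusters. Their groups overlapped, at 49.95 ± 5.61 and 51.4 ± 1.32 CPM (log2 fold change 0.04, SE 0.0987) and 29.6 ± 1.97 and 30.7 ± 3.08 CPM (0.05, SE 0.107, adjusted p = 0.904 by edgeR). The uncoupling protein relatives Slc25a14 (log2 fold change -0.22), Slc25a27 (0.31, SE 0.172, adjusted p = 0.517 by edgeR) and Slc25a30 (0.12) did not pass the test.

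Of 8 tested members whose substrate is less settled, none passed. Slc25a48 stood farthest from 0 of all tested members, at a log2 fold change of 1.87 (SE 0.659, adjusted p = 0.288 by edgeR, adjusted p = 0.0444 by DESeq2). It measured 1.84, 0.605 and 0.928 CPM in controls and 1.72, 7.84 and 2.88 CPM in ANKO, from 12 to 181 counts a library. ANKO 1 lay below control 1, and without ANKO 2 the log2 fold change was 1.02. Slc25a45 had 15.9 ± 1.79 and 19.3 ± 1.09 CPM (log2 fold change 0.28, SE 0.123, adjusted p = 0.397 by edgeR), with groups that did not overlap. Slc25a35 had 38.9 ± 5.16 and 31.5 ± 4.41 CPM (log2 fold change -0.31, SE 0.136), and 31.3% of its exon bases overlap Rangrf, so its counts may include reads of that gene. Slc25a46, an outer membrane protein of mitochondrial dynamics, had a log2 fold change of -0.16, Slc25a53 of -0.05, Slc25a34 of -0.34 and Slc25a47 of 0.13. Slc25a43 measured 1.095, 1.21 and 0.928 CPM in controls and 0.336, 0.390 and 2.045 CPM in ANKO, from 8 to 44 counts a library. ANKO 3 lay above the controls and the other ANKO libraries below them. The log2 fold change of Slc25a43 was -0.24 (SE 0.683), but -1.55 without ANKO 3 (adjusted p = 0.301 by edgeR) and -1.14 with muscle RNA as a covariate (adjusted p = 0.410 by edgeR). It was 0.20 without ANKO 1 and 0.13 without ANKO 2.

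By position, 4 pairs of members lie next to each other with less than 50000 bases between them. These are Slc25a29 and Slc25a47 on chromosome 12 (162 bases apart on opposite strands), Slc25a41 and Slc25a23 on chromosome 17, Slc25a54 and Slc25a24 on chromosome 3 (6461 bases) and Slc25a43 and Slc25a5 on chromosome X (18448 bases). In the pairs of chromosomes 17 and 3, 1 partner had at most 4 counts in any library. In the other pairs neither gene was called. Exons shared with other genes also covered 8.92% of Slc25a11 (Rnf167), 7.06% of Slc25a46, 6.60% of Slc25a10 (Gm11788) and 6.33% of Slc25a37, and the sources used here do not say whether the counting used strand.

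Carrier family genes that bear other names gave no call among 5. These genes are outside the levels and sums given above, and Ucp2 among them stood at 55.4 CPM per kilobase. Its groups overlapped (log2 fold change 0.05, SE 0.111). Ucp1, the uncoupling protein of brown and beige fat, measured 0, 1.66 and 1.24 CPM in controls and 2.61, 7.80 and 5.02 CPM in ANKO. Its groups did not overlap, but the error was wide (log2 fold change 2.43, SE 1.00, adjusted p = 0.395 by edgeR). The log2 fold change of Ucp1 was 1.82 without control 1, 3.10 without control 2 and 3.84 with limma-voom. None of 13 genes of the import path that delivers carriers to the inner membrane passed, and their median log2 fold change was 0.05. The smallest p there was that of the intermembrane space chaperone Timm10, with 6.20 ± 1.34 and 8.96 ± 0.926 CPM (log2 fold change 0.53, SE 0.201, adjusted p = 0.309 by edgeR). Of 23 other mitochondrial transporters and channels, edgeR called 1 lower and none higher (median log2 fold change 0.09). Over all genes it called 1.10% lower and 0.488% higher. The called transporter was Sfxn5, a sideroflexin, with 31.5, 34.6 and 32.2 CPM in controls and 17.1, 20.1 and 18.1 CPM in ANKO (log2 fold change -0.83, SE 0.104, adjusted p = 0.0112 by edgeR, 0.0639 without ANKO 3). Its groups did not overlap. The number called lower was 2 with DESeq2, upper-quartile scaling, no low-count filter or without control 1, and 0 without ANKO 3. Over all genes, DESeq2 called 498 of 19268 lower, and upper-quartile scaling gave 233 of 19272. The related Sfxn1, a serine carrier named after its values were seen, measured 102, 139 and 168 CPM in controls and 59.75, 77.1 and 59.7 CPM in ANKO. These groups did not overlap either, and Sfxn1 just missed the threshold (log2 fold change -1.06, SE 0.193, adjusted p = 0.0514 by edgeR, 2.1e-05 by DESeq2).

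Of 28 enzymes that make or use what the carriers move, edgeR called 1 lower and none higher (median log2 fold change -0.13). Over all genes, edgeR called 1.10% lower and 0.488% higher. The number of enzymes called lower was 6 with DESeq2, which called 498 of 19268 genes lower. It was 3 with no low-count filter, where 297 of 29188 genes were lower, and 3 without control 1, where 221 of 19816 were. It was 0 where the Dbt call was lost, which is described next. An unadjusted p under 0.05 by edgeR was reached by 10 of the 28 enzymes, 8 lower and 2 higher, beside the 12.9% of all genes given above. Dbt, a subunit of the branched-chain ketoacid dehydrogenase, stood at 49.7 ± 5.98 CPM in controls and at 31.6 ± 1.51 CPM in ANKO, and edgeR gave a log2 fold change of -0.65 (SE 0.107, adjusted p = 0.0294). The Dbt call was lost with the replicate block (adjusted p = 0.0714), with muscle RNA as a covariate (0.0791) and when any library but control 1 was left out (0.0715 to 0.127). The summed white adipocyte and endothelial markers were also lower in ANKO, as given above. Their part in the lower values of Slc25a16, Sfxn5, Sfxn1 and Dbt was not tested. All values here are transcript levels, and carrier protein and transport were not measured.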

How the data were processed

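Per the submitters' processing notes, the authors' tools were featureCounts 1.45, Subread and STAR 2.0.4b, on build GRCm38. Annotation release and strand setting: not given in the sources used here. What the authors deposited is a table of raw read counts by gene symbol with a column for each mouse, and titles gave the groups. Of 40757 lines, 329 exact repeats were dropped; 105 symbols with several different lines stayed separate.

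Counts were tested with edgeR 4.0.16 (R 4.3.3) over all 6 libraries: filterByExpr (minimum count 10, minimum total 15; 19272 genes kept), TMM scaling, robust quasi-likelihood test, Benjamini-Hochberg over all genes, threshold 0.05. CPM values are TMM-scaled. The standard error is the log2 fold change over the square root of F. Positions, exon lengths and overlaps come from GENCODE M21 (GRCm38), and promoters from RefSeq. The steps were also run on simulated counts, in which every changed gene changed by more than Slc25a23 did here. Muscle RNA was not varied between the simulated libraries.

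The members and lists were chosen with earlier results of these data known. Genes named were Nampt, members with an unadjusted p under 0.05, the member with the smallest p in each role list, the 5 highest per length, Slc25a51, the untested members, and from each other list up to 3 called genes or the 1 with the smallest p. Other members are named to complete their role list, and Acly, Elovl3 and Sfxn1 after their values were seen. Each result was recomputed with DESeq2 1.42.0, limma-voom (limma 3.58.1), upper-quartile or RLE scaling, robust=FALSE, 2 other low-count filters, removal of mitochondrial-genome genes, the replicate block, a muscle covariate and leaving out each library. Replicates of a group differed by more than sampling noise (chi-square per degree of freedom 30.6 to 75.1). Values of 1 member are not reported here by name or in the figures, though it is in the counts.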

Additional observations from a re-analysis of the deposited data

How the results depend on the processing

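Besides Nampt, which stayed called throughout, 20 named genes were refitted under 16 alternatives. Direction and side of the threshold stayed the same for 297 values, the call was lost for 13 and gained for 4, and the sign turned for 6. Members called lower (1) became 2 with DESeq2 and 2 with no low-count filter, 0 with the muscle covariate, and 0 to 1 when 1 library was left out. Members called higher (0) became 2 with DESeq2. Over all genes, the 212 lower became 498 with DESeq2, 112 with the muscle covariate and 55 to 221 with 1 library left out. The 94 higher became 388 with DESeq2, 167 with no low-count filter, 49 with the muscle covariate and 20 to 107 with 1 library left out. Both were lowest without ANKO 3 and moved by over 1.5 times without control 2, control 3 or ANKO 2 too, the lower count also without ANKO 1 and the higher without control 1. Leaving out a library also means fewer samples; otherwise the cause was not tested. Near 0, Slc25a4 (0.01) became -0.0097 with limma-voom and ran from -0.23 to 0.20 with 1 library left out, and Slc25a28 (0.05) ran from -0.03 to 0.11. With the replicate block, 62 genes were higher and 145 lower, Slc25a4 was -0.0070, Slc25a23 stayed called (adjusted p = 0.0472 by edgeR) and Dbt did not. Same-numbered libraries shared little deviation from their group means (r = 0.0746, -0.0333 and -0.0435), and not every library correlated best with its own number. The sources used here do not say what the numbers stand for, so pairing of the mice is not settled. No scaling moved the median of all genes by more than 0.1. With 3 mice a group, small differences in carriers of few counts could not be detected. A larger difference in an abundant carrier could also miss the threshold where libraries varied. Slc25a1 missed the threshold at a log2 fold change of 1.08 (SE 0.370, adjusted p = 0.294 by edgeR), which ran from 0.73 to 1.29 with 1 library left out. Whether Slc25a1 differs between the groups is not settled by these 6 libraries.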
